A study of Homo sapiens with 27 samples.

Results

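The Mastermind-like family consists of MAML1, MAML2 and MAML3, and 3 of the 23230 gene symbols in the count table carry these names. RNA was measured in 27 libraries from 3 human tumour cell lines in which MAML3 had been overexpressed. SK-N-SH derives from a neuroblastoma, and QGP-1 and BON-1 derive from pancreatic neuroendocrine tumours. Each line was transfected with MAML3 cDNA lacking exon 1 (dEx1), with full-length MAML3 cDNA (FL), or with the pCMV6-AC plasmid carrying neither (vector), and RNA was taken on day 3. Both cDNAs carried a C-terminal V5 tag, and all 3 groups of a line, vector included, had been through the same lipid transfection. Each of the 9 groups held 3 biological replicates. A pCMV6 plasmid drives its insert from a viral promoter, and transfected cultures are mixtures of cells with and without plasmid, so each library averages over both. Reads from the chromosomal MAML3 gene and from the plasmid fall in the same row of the table and cannot be told apart.

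Mastermind-like proteins are nuclear coactivators of the Notch pathway. When a Notch receptor is cleaved, its intracellular domain enters the nucleus and binds the DNA-binding protein RBPJ, and a helix near the start of a Mastermind-like protein lies across both. The rest of the protein recruits the acetyltransferases p300 and CBP and the kinase CDK8 with cyclin C, which phosphorylates the Notch domain and marks it for destruction. Fragments that keep the helix but lack the rest block Notch signalling. MAML2 and MAML3 are also known from gene fusions in tumours, such as CRTC1 with MAML2 in salivary gland carcinoma and UBTF with MAML3 in pheochromocytoma and paraganglioma, in which the first exon of the Mastermind-like gene is replaced.

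The 3 genes share one layout of 5 exons but differ in span. On GRCh37, the assembly behind the hg19 build named by the submitters, the GENCODE annotation places MAML1 on the plus strand at chr5:179159823-179204284, a span of 44.5 kb. MAML2 lies on the minus strand at chr11:95709762-96076359 and spans 366.6 kb. MAML3 lies on the minus strand at chr4:140637907-141075338 and spans 437.4 kb. Exon 1 holds 315 coding bases in MAML1, 513 in MAML2 and 468 in MAML3, which are 10.3%, 14.8% and 13.7% of each coding sequence. MAML3 exon 1, the part absent from the dEx1 cDNA, runs from 141074014 to 141075338 and is 1325 bases long with its untranslated stretch.

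**Figure D1:**
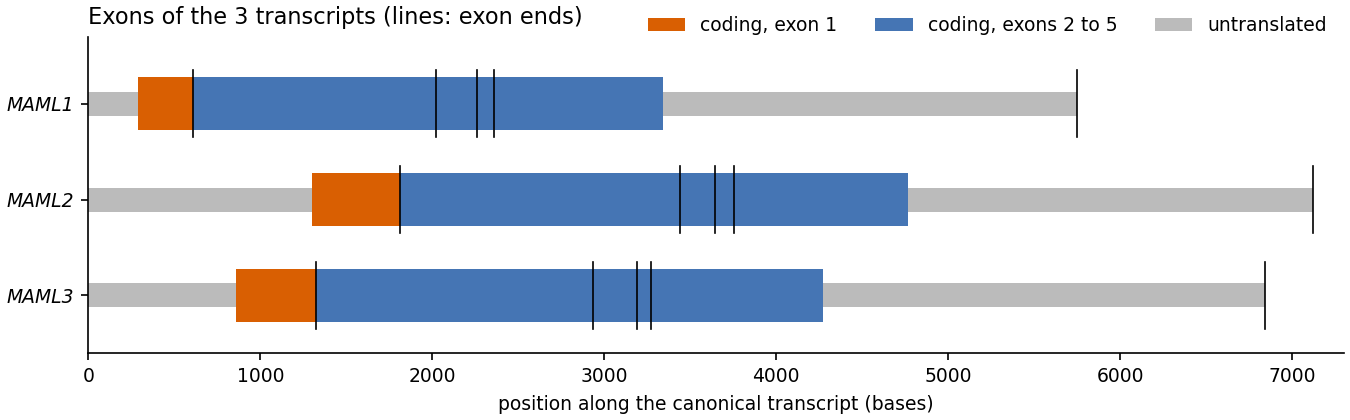
Exons of the canonical MAML1, MAML2 and MAML3 transcripts, with position along the transcript in bases on the x axis and vertical lines at exon ends. Thick blocks are coding and thin blocks untranslated; coding sequence of exon 1 (orange) makes up 10.3% to 14.8% of the coding sequence in each gene.

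The 90 bases of exon 1 that encode the start of the Notch-binding helix are shown because they are the shared feature of the family that the dEx1 cDNA lacks. Capitals mark bases that are the same in all 3 genes, each written 5′ to 3′ on the coding strand. The windows are chr5:179160147-179160236 (plus), chr11:96074886-96074975 (minus) and chr4:141074197-141074286 (minus) on GRCh37.
MAML1: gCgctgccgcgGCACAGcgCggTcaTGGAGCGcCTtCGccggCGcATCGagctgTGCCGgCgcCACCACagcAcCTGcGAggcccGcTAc
MAML2: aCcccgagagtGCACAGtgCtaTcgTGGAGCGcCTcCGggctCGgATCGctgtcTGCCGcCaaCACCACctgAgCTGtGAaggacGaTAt
MAML3: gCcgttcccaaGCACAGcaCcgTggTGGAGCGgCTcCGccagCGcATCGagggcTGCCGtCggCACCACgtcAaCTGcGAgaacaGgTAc
The windows were chosen at codon starts of exon 1 for the most bases shared by MAML3 with MAML1 and with MAML2. The identities are therefore high by that choice, in which the pair of MAML1 and MAML2 took no part. The same base stood in all 3 genes at 47 of 90 positions (52.2%). MAML1 and MAML3 were alike at 65 of 90 positions (72.2%), MAML1 and MAML2 at 55 (61.1%), and MAML2 and MAML3 at 53 (58.9%).

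Deletion of exon 1 removes everything upstream of the join between exons 1 and 2 of MAML3. The annotated join is shown with the last 45 bases of exon 1 in capitals and the first 45 bases of exon 2 in lower case.
MAML3 junction: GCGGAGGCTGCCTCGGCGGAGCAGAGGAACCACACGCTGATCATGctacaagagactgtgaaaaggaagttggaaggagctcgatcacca
In the annotation, exon 2, with 1611 coding bases, and exons 3 to 5 follow the join. The plasmid sequences were not given, so the exact content of each cDNA is not known here. The gene totals used here do not separate exons, so whether a MAML3 count came from RNA with or without exon 1 was not measured.

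Libraries held 73026244 to 120254457 estimated counts in all. Levels are given as CPM, the usual counts scaled to a common library total, after one scaling over the 27 libraries, as mean ± SD with n = 3 per group. Fold changes are log2 values from edgeR's quasi-likelihood test with Benjamini-Hochberg adjusted p over all genes tested, and a change is called at an adjusted p below 0.05. SK-N-SH libraries held 5 of 6 adrenergic neuroblastoma markers above 1 CPM, with TH at 0.00574 CPM, and all 4 mesenchymal markers at a summed 8140 to 11100 CPM. Neuroendocrine markers were present in QGP-1 (6 of 6, summed 1560 to 3010 CPM) and in BON-1 (5 of 6, summed 13000 to 35800 CPM, PAX6 absent above 1 CPM). Some libraries stood apart from others of their group. In SK-N-SH, replicate 3 of each group lay below replicates 1 and 2 of that group on the second principal component (19.3% of variance), and vector replicate 3 lay with dEx1 on the first (40.8%). In BON-1, vector replicate 1 lay alone on the first component (30.2%). In QGP-1 the first component (39.8%) put 5 libraries on one side and 4 on the other, each side with libraries of all 3 groups.

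In cells with the vector, where no plasmid MAML3 was present, the 3 genes were used at different levels in the 3 lines. MAML1 was the highest of the family in each line per length of exon, MAML2 varied most between lines, and MAML3 was about equal in QGP-1 and BON-1 and lower in SK-N-SH. Per kb of exon, SK-N-SH vector libraries held 15.8 CPM of MAML1, 9.79 of MAML2 and 3.21 of MAML3. QGP-1 vector libraries held 16.5, 0.400 and 10.0 CPM per kb of the same genes. BON-1 vector libraries held 13.5, 3.20 and 9.90 CPM per kb. MAML2 was thus second in SK-N-SH and last in the pancreatic lines, where MAML3 was second. As a share of the family's CPM per kb of canonical transcript, MAML3 took 10.8% ± 3.02 in SK-N-SH, 35.5% ± 10.6 in QGP-1 and 36.7% ± 2.85 in BON-1.

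**Figure D2:**
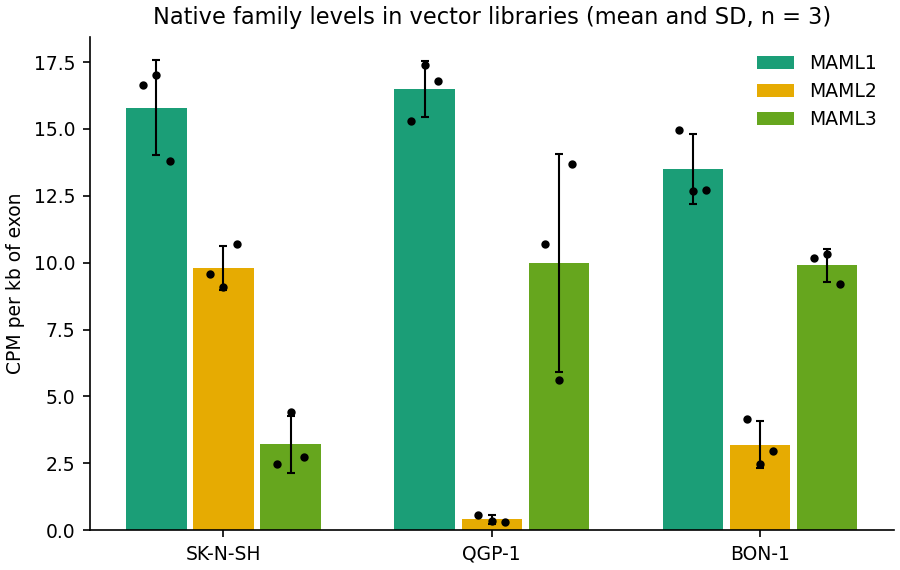
Levels of MAML1, MAML2 and MAML3 in the vector libraries of each line, in CPM per kb of exon; bars are means, whiskers SD and points the 3 libraries. MAML1 is the tallest bar in each line, at 15.8, 16.5 and 13.5 CPM per kb from left to right, and MAML2 is near 0 in QGP-1 (0.400).

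MAML2 differed most between the vector groups. Its 3 vector libraries held 68.3, 64.7 and 76.1 CPM in SK-N-SH, 4.11, 2.31 and 2.13 CPM in QGP-1, and 29.6, 17.5 and 21.2 CPM in BON-1. The 3 lines did not overlap, and the share of all genes without overlap between lines was not counted. SK-N-SH was 24.5-fold above QGP-1 (log2 4.61, SE 0.435, adjusted p = 7.74e-09) and 3.06-fold above BON-1 (log2 1.61, SE 0.382, adjusted p = 0.000975). QGP-1 was below BON-1 by a log2 difference of -3.00 (SE 0.405, adjusted p = 2.31e-06). Differences between lines were common in these data: 60.6% of 16883 genes passed between SK-N-SH and QGP-1, 60.6% between SK-N-SH and BON-1 and 51.4% between QGP-1 and BON-1. The lines also differ in tissue of origin and in culture medium, which cannot be told apart from the line. In bulk RNA, fewer cells with a transcript and less of it per cell cannot be told apart either.

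Native MAML3 held 16.9, 30.3 and 18.8 CPM in the SK-N-SH vector libraries, 73.3, 38.5 and 93.7 CPM in those of QGP-1, and 69.8, 70.6 and 63.0 CPM in those of BON-1. All SK-N-SH values lay below all values of the other lines, and the share of all genes that separate in this way was not counted. The log2 difference was -1.64 against QGP-1 (SE 0.443, adjusted p = 0.00304) and -1.62 against BON-1 (SE 0.443, adjusted p = 0.00328). Between QGP-1 and BON-1 it was 0.02 (95% interval -0.88 to 0.91, adjusted p = 1.00), and QGP-1 was the more variable line.

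MAML1 held 99.4, 102 and 82.3 CPM in the SK-N-SH vector libraries, 91.4, 104 and 100.2 CPM in those of QGP-1, and 89.3, 75.7 and 75.9 CPM in those of BON-1. QGP-1 lay above BON-1 with a log2 difference of 0.29 (SE 0.104, adjusted p = 0.0230), a call lost without QGP-1 vector replicate 3 (0.28, adjusted p = 0.0584) or BON-1 vector replicate 3 (0.26, adjusted p = 0.075). The difference between SK-N-SH and BON-1, 0.23 (95% interval 0.02 to 0.45), missed the threshold at an adjusted p of 0.0576. It passed when genes below a mean of 2 CPM were left out (0.26, adjusted p = 0.0325), with no filter (0.26, adjusted p = 0.0492) and in DESeq2 (0.24, adjusted p = 0.021). It also passed without SK-N-SH vector replicate 3 (0.34, adjusted p = 0.01) or BON-1 vector replicate 1 (0.31, adjusted p = 0.0188). SK-N-SH and QGP-1 differed by -0.06 (95% interval -0.28 to 0.16, adjusted p = 0.651).

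MAML3, the transfected gene, was far above its vector level in each construct library. In SK-N-SH, MAML3 held 9295, 13890 and 4919 CPM with dEx1, 12350, 15840 and 7858 CPM with FL, and 16.9, 30.3 and 18.8 CPM with the vector. In QGP-1 it held 2492, 5413 and 4945 CPM with dEx1, 2231, 8296 and 5900 CPM with FL, and 73.3, 38.5 and 93.7 CPM with the vector. In BON-1 it held 3184, 3689 and 4112 CPM with dEx1, 2789, 3967 and 5369 CPM with FL, and 69.8, 70.6 and 63.0 CPM with the vector. Construct and vector groups did not overlap in any line, and the dEx1 and FL groups overlapped in all 3. Groups without overlap were found for 26.6%, 8.92% and 8.35% of genes for dEx1 against vector in SK-N-SH, QGP-1 and BON-1, for 21.5%, 11% and 8.63% for FL against vector, and for 43.4%, 4.48% and 5.62% for dEx1 against FL. These values were set by the transfection. They separate each construct library from the vector libraries of its line and do not check the dEx1 label against the FL label.

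The excess over vector was 428-fold with dEx1 (95% interval 180 to 1020, adjusted p = 0.0013) and 546-fold with FL (227 to 1310, adjusted p = 0.000525) in SK-N-SH. In that line 4.47% of 14674 genes passed for dEx1 against vector and 1.74% for FL against vector. In QGP-1 the excess was 63.0-fold with dEx1 (23.5 to 169, adjusted p = 0.0355) and 80.2-fold with FL (29.4 to 218, adjusted p = 0.0193), where 0.0207% and 0.0275% of 14522 genes passed. In BON-1 it was 54.1-fold with dEx1 (35.8 to 81.7, adjusted p = 6.24e-05) and 59.6-fold with FL (39.3 to 90.3, adjusted p = 5.34e-05), where 0.0134% and 0.00671% of 14903 genes passed. In BON-1, MAML3 was therefore the single gene past the threshold with FL in edgeR. There 576 genes had an unadjusted p below 0.05 for FL against vector, and DESeq2 called 28. Both QGP-1 calls were also made in DESeq2 (adjusted p = 1.16e-29 for dEx1 and 1.43e-33 for FL). The same held in 1 edgeR fit of all 27 libraries (adjusted p = 4.5e-06 and 2.13e-06). In edgeR fits of QGP-1 alone, the calls lay near the threshold and were often lost with 1 library fewer. They were lost also where that library was not in the groups compared. Without dEx1 replicate 2 or 3, the FL value stayed at log2 6.325 (adjusted p = 0.0615 and 0.0551). The dEx1 call was lost in 8 of 9 leave-one-out fits, without any library of the line except FL replicate 1 (adjusted p 0.051 to 0.225, log2 5.69 to 6.27). The FL call was lost in 5 of 9, without dEx1 replicate 2 or 3 or any vector replicate (adjusted p 0.0551 to 0.133, log2 6.04 to 6.62).

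MAML3 was among the most counted genes of the construct libraries. It made up 0.933% of all counts with dEx1 and 1.14% with FL in SK-N-SH, against 0.00214% with the vector. In QGP-1 it made up 0.461% with dEx1 and 0.595% with FL, against 0.00731% with the vector. In BON-1 it made up 0.351% with dEx1 and 0.388% with FL, against 0.00651% with the vector. By raw counts per gene, which favour long transcripts, MAML3 ranked 1 in SK-N-SH dEx1 replicate 2, in SK-N-SH FL replicates 1 and 2 and in QGP-1 FL replicate 2. Its lowest rank with a construct was 16, in BON-1 dEx1 replicate 1 and FL replicate 1, and with the vector it ranked between 2473 and 7985.

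**Figure D3:**
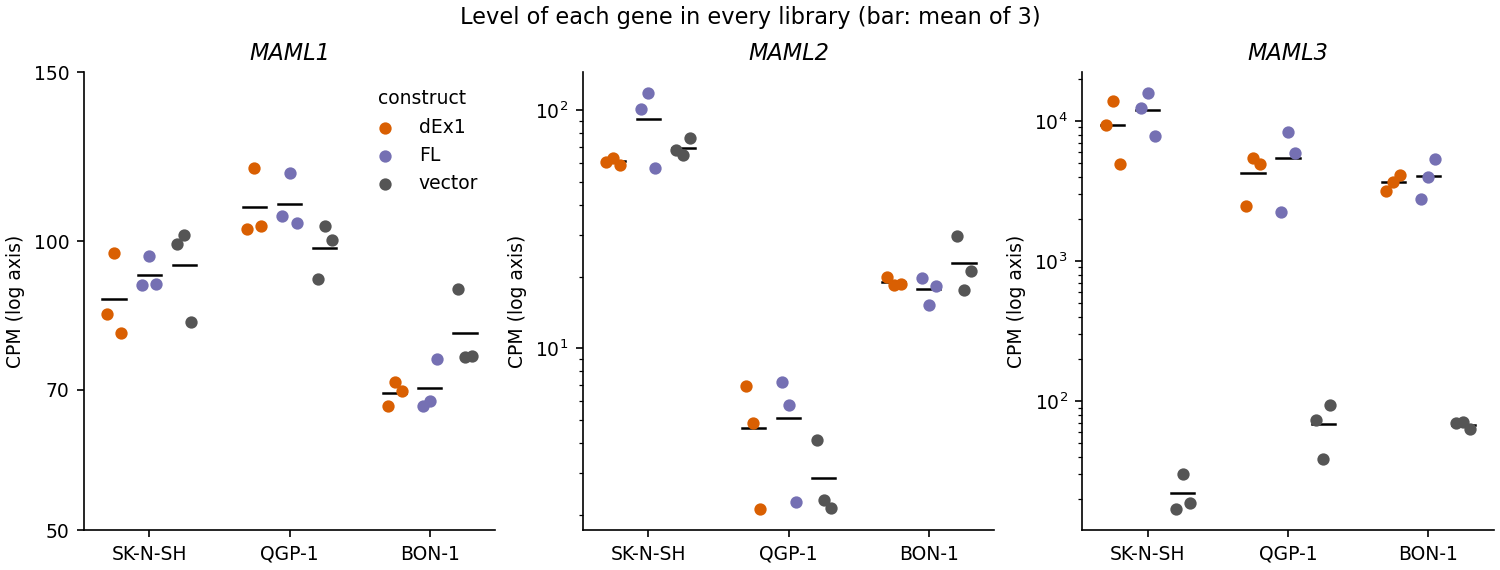
CPM of MAML1, MAML2 and MAML3 in each of the 27 libraries on log axes, by line and construct; points are libraries in replicate order and bars the mean of 3. MAML3 lies between 2231 and 15840 CPM in all construct libraries and between 16.9 and 93.7 CPM with the vector, while MAML1 stays between 67.3 and 119 CPM.

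The dEx1 and FL groups overlapped in MAML3 level, and the intervals of their difference were wide. The log2 difference of dEx1 against FL was -0.35 in SK-N-SH (95% interval -1.24 to 0.54, adjusted p = 0.577), -0.35 in QGP-1 (-1.50 to 0.80, adjusted p = 1) and -0.14 in BON-1 (-0.63 to 0.34, adjusted p = 1). The share of genes passing in this comparison was 22% in SK-N-SH, 0.0138% in QGP-1 and 0% in BON-1. The count of 0 in BON-1 is from edgeR, where 156 genes had an unadjusted p below 0.05; DESeq2 called 8. With the replicate number as a block the count in QGP-1 was 0 genes, against 2 without it.

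The size of the MAML3 increase differed between lines. With FL, the log2 effect in SK-N-SH exceeded that in BON-1 by 3.20 (SE 0.625, adjusted p = 0.0298), and with dEx1 by 2.98 (SE 0.623, adjusted p = 0.0378). Of 16883 genes, 0.284% and 0.332% passed in these comparisons. Against QGP-1 the dEx1 effect in SK-N-SH was larger by 2.77 (SE 0.622, adjusted p = 0.0452), where 0.521% of genes passed. The FL effect differed by 2.77 (SE 0.622) but missed the threshold at an adjusted p of 0.0771, where 0.16% of genes passed. Both a higher construct level and a lower native level in SK-N-SH enter these differences. These calls lay near the threshold and were often lost in fits with 1 library fewer. The FL difference between SK-N-SH and BON-1 was lost without SK-N-SH FL replicate 1 or 2, SK-N-SH vector replicate 1 or 3, or BON-1 FL replicate 1 or 2 (adjusted p 0.0565 to 0.0997). The dEx1 difference between SK-N-SH and BON-1 was lost without SK-N-SH dEx1 or vector replicate 1 or 2, any BON-1 dEx1 replicate, or BON-1 vector replicate 1 or 2 (adjusted p 0.0511 to 0.143). The dEx1 difference between SK-N-SH and QGP-1 was lost without SK-N-SH dEx1 or vector replicate 1 or 2, any QGP-1 dEx1 replicate, or QGP-1 vector replicate 1 or 3 (adjusted p 0.0548 to 0.157). The FL difference between SK-N-SH and QGP-1 passed without SK-N-SH FL replicate 3 (3.00, adjusted p = 0.0466). Between QGP-1 and BON-1 the effects differed by 0.42 for FL (95% interval -0.85 to 1.69) and by 0.21 for dEx1 (-1.06 to 1.48), both with an adjusted p of 1. Of all genes 0.0118% passed for FL in that pair of lines and 0% for dEx1, which is 0 genes in edgeR, with 660 at an unadjusted p below 0.05 and 38 called by DESeq2.

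MAML1, the most evenly expressed member, did not pass the test in any of the 9 construct comparisons. It ranged from 67.3 to 119 CPM over all 27 libraries, a 1.77-fold span. In SK-N-SH it averaged 87.2 ± 8.94 CPM with dEx1, 92.3 ± 3.72 with FL and 94.4 ± 10.6 with the vector. In QGP-1 it averaged 109 ± 9.22 CPM with dEx1, 109 ± 7.18 with FL and 98.4 ± 6.35 with the vector. In BON-1 it averaged 69.5 ± 2.01 CPM with dEx1, 70.3 ± 4.47 with FL and 80.3 ± 7.79 with the vector. The 9 intervals ran no lower than -0.46 and no higher than 0.41 on the log2 scale.

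MAML1 values with a construct lay below those with the vector in BON-1 and mostly above them in QGP-1, without passing. In BON-1 the dEx1 libraries held 67.3, 71.3 and 69.8 CPM and the FL libraries 67.3, 68.2 and 75.5 CPM, all below the vector libraries at 89.3, 75.7 and 75.9 CPM. The gap was narrow, with FL replicate 3 at 75.45 CPM and vector replicate 2 at 75.71 CPM. The highest value was that of vector replicate 1, which stood alone on the first principal component. The log2 differences were -0.21 (95% interval -0.46 to 0.05, adjusted p = 0.916) and -0.19 (-0.44 to 0.06, adjusted p = 0.928). Leaving out each library in turn gave -0.22 to -0.14 and -0.24 to -0.12. Groups that did not overlap were found for 8.35% and 8.63% of genes in these comparisons. In QGP-1 the dEx1 libraries held 103, 119 and 104 CPM and the FL libraries 106, 118 and 105 CPM, against 91.4, 104 and 100.2 CPM with the vector. The FL group lay above the vector group without overlap, where 11% of genes had groups that did not overlap, and the log2 difference was 0.16 (95% interval -0.09 to 0.41, adjusted p = 0.999). The FL effect on MAML1 in QGP-1 minus that in BON-1 was 0.34 (SE 0.148, unadjusted p = 0.0294, adjusted p = 1), and the dEx1 effect gave 0.35 (SE 0.148, unadjusted p = 0.0271, adjusted p = 1).

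MAML2 did not pass in any construct comparison either, and its values turned on single libraries. In SK-N-SH it held 60.9, 63.1 and 58.9 CPM with dEx1, 101, 118 and 57.4 CPM with FL, and 68.3, 64.7 and 76.1 CPM with the vector. FL replicates 1 and 2 were the highest of all libraries, and FL replicate 3 was the lowest of the line. The dEx1 group lay wholly below the vector group, in a comparison where the groups of 26.6% of genes did not overlap, with a log2 difference of -0.19 (95% interval -0.69 to 0.31, adjusted p = 0.669). FL against vector gave 0.40 (95% interval -0.10 to 0.90, adjusted p = 0.432), and dEx1 against FL gave -0.59 (-1.09 to -0.09, unadjusted p = 0.0267, adjusted p = 0.0904).

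Both MAML2 comparisons with FL in SK-N-SH passed once FL replicate 3 was left out. FL against vector was then 0.65 (adjusted p = 0.0262) and dEx1 against FL -0.85 (adjusted p = 0.00307). DESeq2 called dEx1 against FL on all libraries (-0.60, adjusted p = 0.0392). FL replicate 3 also had the lowest MAML3 of its group, 7858 CPM against 12350 and 15840 CPM, and lay apart on the second principal component with replicate 3 of the other groups. With a term for replicate 3 in the model, chosen after the data were seen, dEx1 against FL was -0.56 (adjusted p = 0.0698). The part of the MAML3 level or of the replicate in the MAML2 values was not tested.

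**Figure D4:**
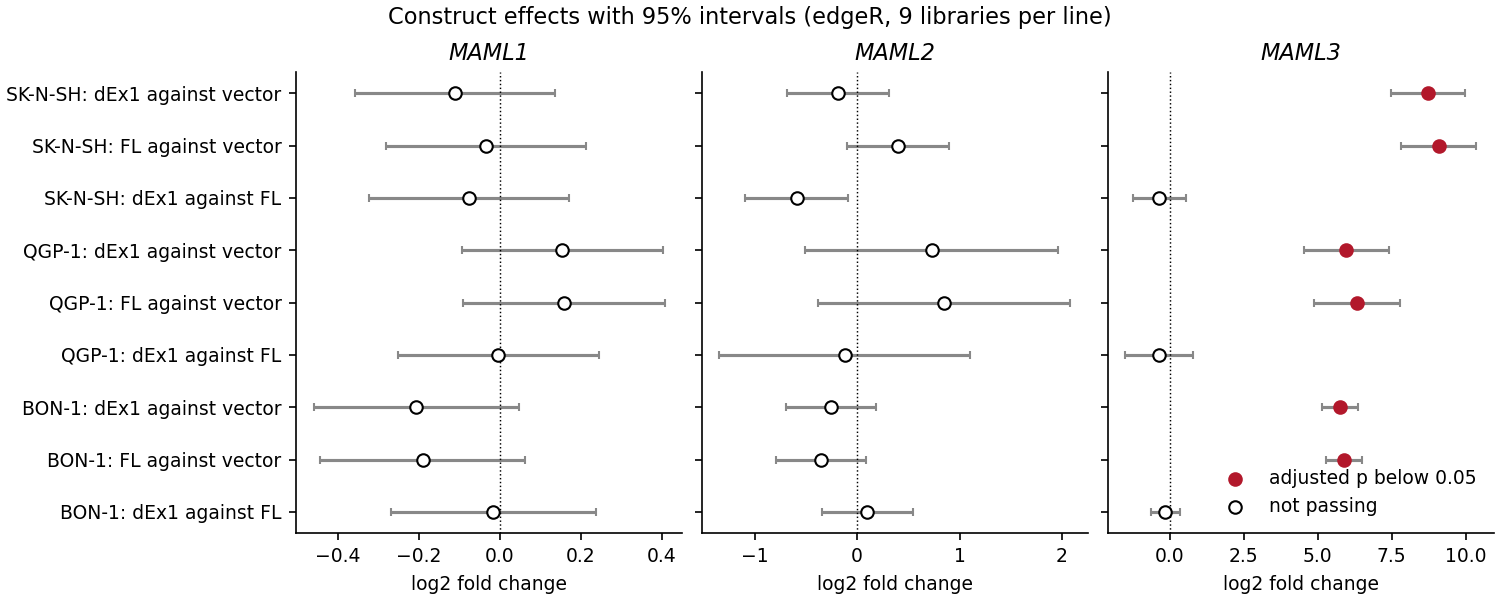
Log2 fold changes of MAML1, MAML2 and MAML3 in the 9 construct comparisons, with 95% intervals as whiskers; filled points passed at an adjusted p below 0.05 and the x axes differ between genes. The 6 filled points are MAML3 in a construct against vector, from 5.76 to 9.09, and the MAML2 interval for dEx1 against FL in SK-N-SH (-1.09 to -0.09) stops short of 0 without passing.

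In QGP-1, where MAML2 is scarce, its level divided with the 2 sides of the first principal component and overlapped between constructs. The dEx1 libraries held 6.97, 4.87 and 2.11 CPM, the FL libraries 7.20, 5.80 and 2.25 CPM, and the vector libraries 4.11, 2.31 and 2.13 CPM. The 5 libraries on one side of the first principal component, computed without the 3 family genes, held 4.11 to 7.20 CPM. The 4 on the other side held 2.11 to 2.31 CPM. The sides did not overlap and the construct groups did. The sides were defined from the expression of other genes in these same libraries, so many genes divide by side, and their share was not counted. Whether side or construct accounts for the MAML2 values was not tested. The log2 difference was 0.73 for dEx1 against vector (95% interval -0.51 to 1.96, adjusted p = 1) and 0.85 for FL against vector (-0.39 to 2.08, adjusted p = 0.999). With a term for the side, added after the data were seen, these were 0.19 (adjusted p = 0.728) and 0.31 (adjusted p = 0.491).

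**Figure D5:**
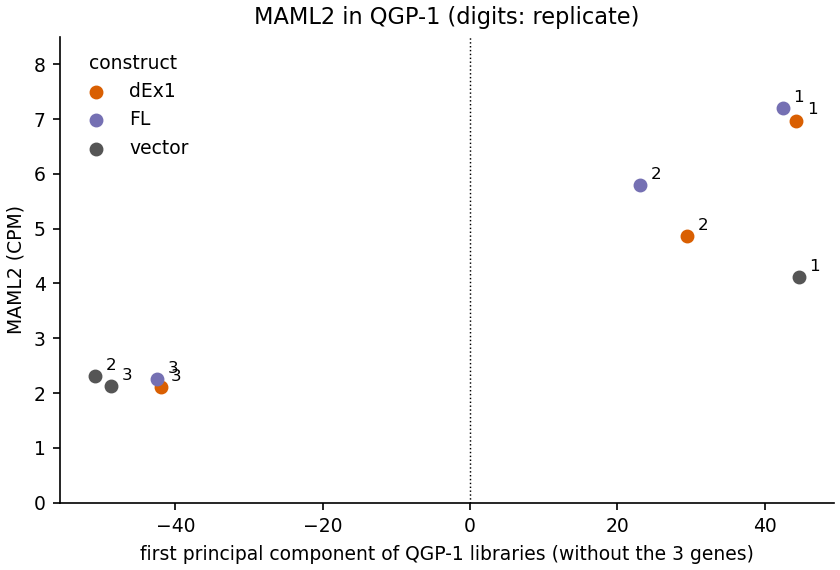
MAML2 in the 9 QGP-1 libraries, in CPM, against their position on the first principal component of all other genes; colours give the construct and digits the replicate. The 5 libraries right of 0 hold 4.11 to 7.20 CPM and the 4 left of 0 hold 2.11 to 2.31 CPM, with dEx1, FL and vector libraries on both sides.

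In BON-1, MAML2 held 19.9, 18.5 and 18.6 CPM with dEx1, 19.8, 15.2 and 18.3 CPM with FL, and 29.6, 17.5 and 21.2 CPM with the vector. The groups overlapped, and vector replicate 1, which stood alone on the first principal component, was the highest. The log2 difference was -0.25 for dEx1 against vector (95% interval -0.70 to 0.19, adjusted p = 0.916) and -0.36 for FL against vector (-0.80 to 0.09, adjusted p = 0.928). Without vector replicate 1 the value of each came to -0.04 and -0.14. Differences of the construct effects on MAML1 or MAML2 between lines had adjusted p of 0.591 or more in the main fit. The largest was the FL effect on MAML2 in QGP-1 minus BON-1, 1.195 (95% interval 0.08 to 2.31, unadjusted p = 0.0363). With the replicate block, the dEx1 effect on MAML2 in SK-N-SH minus QGP-1 was -0.80 (adjusted p = 0.204).

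Ordered by mean CPM over the 9 groups, MAML1 ran from QGP-1 with dEx1 and FL (both 109) down to BON-1 with FL (70.3) and dEx1 (69.5). Neighbours in that order overlapped in their libraries except QGP-1 FL with QGP-1 vector and BON-1 vector with BON-1 FL. MAML2 ran from SK-N-SH FL (92.2) to QGP-1 vector (2.85). Its neighbours overlapped except SK-N-SH vector with SK-N-SH dEx1 and at both steps from one line to the next. MAML3 ran from SK-N-SH FL (12000) to SK-N-SH vector (22.0), and its neighbours overlapped except BON-1 dEx1 with QGP-1 vector and BON-1 vector with SK-N-SH vector. Shares of all genes without overlap are given above for construct groups within a line and were not counted between lines. The MAML3 span over all libraries was 939-fold and the MAML2 span 56.1-fold.

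The partners of the family were followed as 6 lists with 49 different genes, of which 44 could be tested in SK-N-SH. In that line 4 of 44 (9.09%) passed for dEx1 against vector, all lower, and 2 of 44 (4.55%) for FL against vector, both lower; of all genes 3.64% and 0.804% were called lower in these comparisons. For dEx1 against FL, 6 were higher and 5 lower, 25% of the 44 beside 22% of all genes (10.5% higher and 11.5% lower). These counts moved when 1 library was left out. For dEx1 against vector, leaving out 1 library gave between 1 list gene (without dEx1 replicate 1 or 3 or vector replicate 1) and 10 (without vector replicate 3, 22.7% beside 17% of all genes). For dEx1 against FL it gave between 6 (without dEx1 replicate 3 or FL replicate 1) and 14 (without vector replicate 3, 31.8% beside 26.7%). For FL against vector it gave 1 without FL replicate 3 and 0 in edgeR without any other library. On all libraries, 5 list genes had an unadjusted p below 0.05 for FL against vector, 11.4% beside 15.7% of all genes. The count was 16 for dEx1 against vector (36.4%, beside 22.7%) and 21 for dEx1 against FL (47.7%, beside 35.6%). DESeq2 called 11 list genes for dEx1 against vector (25%, beside 13.6% of all genes), 5 for FL against vector (11.4%, beside 7.96%) and 20 for dEx1 against FL (45.5%, beside 31%).

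Among the genes of the Notch transcription complex in SK-N-SH, 1 of 9 tested was called lower for dEx1 against vector and 1 for FL against vector. Of all genes, 3.64% and 0.804% were called lower in these comparisons. For dEx1 against FL, 2 were called higher and 2 lower, beside 10.5% and 11.5% of all genes. The list median there was -0.25 on the log2 scale beside 0.000277 over all genes. RBPJ, the DNA-binding partner of the Mastermind-like helix, fell to 48.1 ± 1.90 CPM with dEx1, against 66.8 ± 3.61 with FL and 75.2 ± 8.78 with the vector. Its log2 difference was -0.64 for dEx1 against vector (SE 0.101, adjusted p = 0.0145) and -0.47 for dEx1 against FL (SE 0.101, adjusted p = 0.0126). NOTCH3, a receptor and itself a Notch target, averaged 153 ± 34.7 CPM with dEx1, 48.6 ± 5.68 with FL and 93.9 ± 35.1 with the vector. It was higher with dEx1 than with FL (log2 1.66, SE 0.264, adjusted p = 0.00362), and neither dEx1 (log2 0.71, adjusted p = 0.151) nor FL (log2 -0.95, adjusted p = 0.114) passed against the vector between them. NOTCH2 averaged 369 ± 36.7 CPM with dEx1, 490 ± 24.7 with FL and 498 ± 69.8 with the vector. It was lower with dEx1 than with FL (log2 -0.40, adjusted p = 0.0431) and did not pass for dEx1 against vector (log2 -0.43, adjusted p = 0.0829).

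Among the acetyltransferase genes given here for SK-N-SH, KAT2B passed and EP300 and CREBBP did not. KAT2B (PCAF) was higher with dEx1, at 16.5 ± 0.644 CPM against 11.6 ± 0.568 with FL (log2 0.51, SE 0.0947, adjusted p = 0.00677). FL was in turn below the vector at 16.3 ± 0.606 CPM (log2 -0.49, adjusted p = 0.046), and both comparisons share the FL libraries. EP300, which encodes p300, averaged 90.3 ± 18.0 CPM with dEx1, 108 ± 15.0 with FL and 114 ± 28.7 with the vector, with no adjusted p below 0.396. CREBBP, which encodes CBP, averaged 110 ± 16.1 CPM with dEx1, 116 ± 9.82 with FL and 139 ± 21.6 with the vector, with no adjusted p below 0.213. None of the 7 genes for the kinase module and Notch turnover passed in edgeR in SK-N-SH, where the list medians lay between -0.10 and 0.10. In that line DESeq2 called none of the 7, and none had an unadjusted p below 0.05.

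Of 7 Notch target genes tested in SK-N-SH, 1 was called lower for dEx1 against vector and 1 for FL against vector, and 2 were called higher and 1 lower for dEx1 against FL. Of all genes, 3.64% were called lower for dEx1 against vector and 0.804% for FL against vector. For dEx1 against FL, 10.5% of all genes were called higher and 11.5% lower. The list medians were -0.26, -0.29 and -0.09 on the log2 scale, beside 0.0101, -0.00658 and 0.000277 over all genes. HES4, a repressor of the hairy and enhancer of split family, fell to 5.01 ± 0.406 CPM with dEx1, against 23.8 ± 3.61 with FL and 28.8 ± 9.18 with the vector. Its log2 difference was -2.24 against FL (SE 0.244, adjusted p = 0.00108) and -2.52 against the vector (adjusted p = 0.00375). HEY1, a related repressor, was higher with dEx1, at 6.90 ± 0.506 CPM against 2.73 ± 1.09 with FL (log2 1.35, SE 0.297, adjusted p = 0.0138). FL was below the vector at 7.65 ± 1.34 CPM (log2 -1.49, adjusted p = 0.0483), again with the FL libraries in common. HES4, HEY1, NOTCH3, KAT2B and GLI2 passed for dEx1 against FL in each of 11 other fits, 9 of them leaving out a library. FL against vector passed in 0 of the 9 leave-one-out fits for KAT2B and in 1 for HEY1. RBPJ passed in 5 of 9 for dEx1 against vector and in 8 for dEx1 against FL, and NOTCH2 in 2 for dEx1 against FL.

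Of 8 partners outside Notch, 2 were called lower for dEx1 against vector, and 2 higher and 1 lower for dEx1 against FL. Of 9 corepressor genes, 1 was called higher and 1 lower for dEx1 against FL. In SK-N-SH, 3.64% of all genes were called lower for dEx1 against vector, and 10.5% higher and 11.5% lower for dEx1 against FL. EGR1, an immediate early transcription factor, fell to 41.0 ± 11.2 CPM with dEx1, against 71.4 ± 8.85 with FL (log2 -0.79, adjusted p = 0.0247) and 91.3 ± 15.0 with the vector (log2 -1.15, SE 0.204, adjusted p = 0.0201). RUNX2, a regulator of bone development, averaged 6.57 ± 0.832 CPM with dEx1 and 11.0 ± 1.63 with the vector (log2 -0.74, adjusted p = 0.035). GLI2, a Hedgehog transcription factor, averaged 41.9 ± 0.247 CPM with dEx1, 22.0 ± 0.681 with FL and 30.0 ± 5.62 with the vector. It was higher with dEx1 than with FL (log2 0.94, SE 0.131, adjusted p = 0.00232), and neither dEx1 (log2 0.49, adjusted p = 0.0719) nor FL (log2 -0.45, adjusted p = 0.138) passed against the vector. CTNNB1, which encodes beta-catenin, was higher with dEx1 than with FL (log2 0.39, adjusted p = 0.0269), as was the deacetylase gene HDAC1 (log2 0.39, adjusted p = 0.0437). NCOR1, a corepressor gene, was lower (log2 -0.32, adjusted p = 0.0362). CTNNB1, HDAC1 and NCOR1 did not pass for either construct against vector, with no adjusted p below 0.101. EGR1 passed in 6 of 9 leave-one-out fits and RUNX2 in 2 for dEx1 against vector. For dEx1 against FL, EGR1 and CTNNB1 passed in 5, NCOR1 in 2 and HDAC1 in 1. None of the 5 fusion partner genes passed in edgeR in any SK-N-SH comparison; PAX3, CRTC1 and YAP1 had an unadjusted p below 0.05 for dEx1, and DESeq2 called all of these for dEx1 against FL.

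In the pancreatic lines no list gene passed in edgeR. In QGP-1, 2 of 46 tested had an unadjusted p below 0.05 for dEx1 against vector (4.35%, beside 3.63% of all genes), 4 for FL against vector (8.7%, beside 5.08%) and 0 for dEx1 against FL (beside 1.28%), and DESeq2 called 0 in each. In BON-1, 5 of 43 had an unadjusted p below 0.05 for dEx1 against vector (11.6%, beside 2.88% of all genes), 6 for FL against vector (14%, beside 3.86%) and 0 for dEx1 against FL (beside 1.05%). Both BON-1 counts against vector share the vector libraries. DESeq2 called only EGR1, for dEx1 against vector. RBPJ averaged 76.8 ± 3.31 CPM with dEx1, 75.0 ± 3.47 with FL and 69.1 ± 7.70 with the vector in QGP-1. In BON-1 it averaged 35.7 ± 6.33 CPM with dEx1, 39.3 ± 5.24 with FL and 37.3 ± 2.46 with the vector. Differences of these effects between lines were not tested for the partners.

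The nearest protein-coding genes on each side of the family members were given as a local comparison. MGST2 overlaps the 3′ end of MAML3 on the other strand, and the strand of counting is not given in the sources used here. Its log2 difference for a construct against vector lay between -0.09 and 0.13 in the 3 lines, with no adjusted p below 0.784, although MAML3 was 54.1-fold to 546-fold above vector. Near MAML1, MGAT4B (gap 20313 bases) was higher with dEx1 than with FL in SK-N-SH (log2 0.55, adjusted p = 0.00311). It was lower with FL than with the vector (log2 -0.55, adjusted p = 0.0246), and both comparisons share the FL libraries. Near MAML2, CEP57 (gap 143905 bases) was lower with dEx1 than with FL (log2 -0.32, adjusted p = 0.0311). CCDC82 (gap 6046 bases) was lower too (log2 -0.41, adjusted p = 0.0105). So was SCOC near MAML3 (gap 103102 bases, log2 -0.44, adjusted p = 0.00728), in the comparison where 22% of genes passed. The other neighbours, CANX, CBY3, LTC4S, MTMR2, JRKL, MGST2, SETD7 and CLGN, passed in no SK-N-SH comparison in edgeR.

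Likeness of pattern was measured as Pearson's r of log2 CPM over the 9 group means, among 11942 genes with a mean of at least 2 CPM. For MAML1 the most alike genes were POGZ (r = 0.985), LRRC37A4P (0.985), FBXL20 (0.983), LARP1 (0.983) and LAMA2 (0.982). For MAML2 they included IFI44L (0.997), FEZ2 (0.997), PPARD (0.997) and ROS1 (0.996). For MAML3 the highest values were lower, with TDP1 at 0.879, RPP30 at 0.835, MEN1 at 0.814, and GSTCD and XPO7 at 0.792. These 5 genes spanned 0.26 to 0.83 on the log2 scale over the 9 group means. MEN1, the tumour suppressor menin, averaged 72.4 CPM with dEx1, 74.5 with FL and 41.8 with the vector in QGP-1. The same groups averaged 62.5, 56.3 and 46.3 CPM in SK-N-SH, and 62.5, 63.2 and 57.2 CPM in BON-1. Genes chosen for likeness to MAML3 follow its gap between construct and vector by that choice. The 9 points share lines and libraries, so these r values are a description.

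MAMLD1, a gene related in sequence to the family and named here after its values were seen, also differed in SK-N-SH. It averaged 92.9 ± 24.7 CPM with dEx1, 23.1 ± 8.08 with FL and 43.2 ± 39.2 with the vector. The log2 difference of dEx1 against FL was 2.01 (SE 0.579, adjusted p = 0.038), and it passed in 3 of 9 leave-one-out fits. In QGP-1 it was at or below 0.0459 CPM in every group mean. In BON-1 it averaged 57.0 ± 8.43 CPM with dEx1, 55.6 ± 7.70 with FL and 50.8 ± 17.2 with the vector.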

How the data were processed

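Poly(A) RNA libraries (TruSeq mRNA) were sequenced from 27 transfected cultures, and the table deposited by the authors holds whole-number estimated counts, with a row per gene. Trimmomatic (trimming), HISAT2 (alignment to hg19) and StringTie (abundances) are the tools in the submitters' processing notes. Versions, annotation, strand and the step from abundance to counts are not given in the sources used here, so what 1 fragment is worth is not known and depth sets no interval. Totals ran from 73026244 to 120254457 per library. Of 23234 rows, 4 repeated a symbol with identical values, leaving 23230 genes.

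Each line was fitted on its 9 libraries with edgeR 4.0.16 in R 4.3.3 (filterByExpr, TMM scaling, quasi-likelihood F test, Benjamini-Hochberg adjustment, threshold 0.05). Contrasts between lines and differences of effects came from 1 model of 27 libraries. CPM used TMM over all 27, log2 CPM a prior count of 2, and fold changes carry SE and 95% intervals. Levels per kb used the exon lengths of GENCODE v44 lifted to GRCh37; sequences are from GRCh37. DESeq2 1.42.0, other scalings and filters, a replicate block, and leaving out each library were alternatives. The code was tested on simulated data. The members, lists and tests were chosen with earlier results of these data known. Beside the 3 members the text names list genes past the threshold, at most 12, RBPJ, NOTCH2, EP300, CREBBP and KAT2B in any case, the nearest neighbours, and the 5 genes most alike in pattern, of which 1 is not reported here. Same-numbered replicates deviated together, with every pair above 0.1, in BON-1 (lowest residual r 0.113) and, between dEx1 and FL, in QGP-1 (0.223). In SK-N-SH every residual r was positive, with replicate 1 at 0.0478 to 0.0971 and replicate 3 at 0.326 to 0.461. Between the constructs and the vector in QGP-1, replicate 2 was negative (-0.168 and -0.141). The main fits did not pair replicates in any line. Replicates are separately plated cultures of the same line. Figures were drawn with matplotlib.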

Additional observations from a re-analysis of the deposited data

Results flagged for a closer look

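The increase of MAML3 differed between lines by a test of the difference itself in 3 cases. The dEx1 effect was larger in SK-N-SH than in QGP-1 by 2.77 and than in BON-1 by 2.98 on the log2 scale. The FL effect was larger in SK-N-SH than in BON-1 by 3.20. In that order the edgeR adjusted p was 0.0452, 0.0378 and 0.0298. These calls lay near the threshold and were lost in 9, 9 and 6 of 12 leave-one-out fits. SK-N-SH had both the highest mean construct levels and the lowest mean vector level of MAML3.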

How the results depend on the processing

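MAML3 kept its direction and its call against vector in SK-N-SH and BON-1 under each alternative run. In QGP-1 it kept its direction, but fits on only the 6 libraries compared gave 5.98 for dEx1 (adjusted p = 0.0652) and 6.33 for FL (adjusted p = 0.109), and the replicate block gave 5.84 for dEx1 (adjusted p = 0.052). The block changed no other call of a family gene within a line. Over all genes in SK-N-SH the block gave 2212 calls for dEx1 against vector, against 656 without it. For FL against vector it gave 778, against 255 without it. There the lowest residual correlations of same-numbered libraries were 0.0874 and 0.0478, under the 0.1 set for pairing. Replicates 2 and 3 gave 0.26 to 0.461, so the main fits leave out a deviation that these share. The main fits paired no line, although every pair lay above 0.1 in BON-1 and, between dEx1 and FL, in QGP-1. They therefore ignore that pairing. With the block in BON-1, MAML3 against vector was 5.74 for dEx1 (adjusted p = 0.000781) and 5.85 for FL (adjusted p = 0.000719). In QGP-1 the block gave 8 calls for FL against vector (4 without it). DESeq2 called MAML2 in SK-N-SH for dEx1 against FL (-0.60). MAML1 in QGP-1 for dEx1 against FL was 0.0020 with DESeq2 size factors, 0.0011 with no filter and 0.0019 in DESeq2, against -0.0035. MAML1 in vector libraries of SK-N-SH against BON-1 passed at 0.24 with DESeq2 size factors and in DESeq2 and with MAML3 left out of the scaling (0.24), at 0.25 with counts divided by 5, and at 0.26 with no filter or a minimum mean of 2 CPM. MAML1 in QGP-1 against BON-1 missed the threshold on the 9 vector libraries alone (0.34). The FL effect on MAML3 in SK-N-SH minus QGP-1 passed at 2.79 in DESeq2 and at 2.93 with the replicate block. The cause of these shifts was not tested.

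Leaving out each library in turn gave, on the log2 scale, the following ranges. For MAML3 in QGP-1 against vector they were 5.69 to 6.27 (dEx1) and 5.88 to 6.68 (FL). For dEx1 against FL they were -0.85 to -0.38 for MAML2 in SK-N-SH, -0.081 to 0.059, -0.54 to 0.23 and -0.71 to 0.096 for MAML1, MAML2 and MAML3 in QGP-1, and -0.047 to 0.039 and -0.35 to 0.12 for MAML1 and MAML3 in BON-1. For FL against vector in SK-N-SH they were -0.12 to 0.018 for MAML1 and 0.19 to 0.65 for MAML2. Between vector groups they were 0.19 to 0.34 for MAML1 in SK-N-SH against BON-1, 0.26 to 0.41 for MAML1 and -0.28 to 0.35 for MAML3 in QGP-1 against BON-1. For differences of the MAML3 effect they were 2.58 to 3.29 (dEx1) and 2.95 to 3.50 (FL) in SK-N-SH minus BON-1, 2.36 to 3.08 (dEx1) and 2.40 to 3.20 (FL) in SK-N-SH minus QGP-1, and -0.085 to 0.51 (dEx1) and -0.0039 to 0.80 (FL) in QGP-1 minus BON-1. For the dEx1 effect on MAML2 in SK-N-SH minus BON-1 the range was -0.15 to 0.22. Of all such values for family genes, 453 kept direction and call, 39 lost a call, 5 gained one and 16 changed sign.

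Counts over all genes moved more than the members did. Over the alternatives the calls ran from 80 to 2714 for dEx1 against vector, 21 to 1168 for FL against vector and 1857 to 5138 for dEx1 against FL in SK-N-SH. They ran from 0 to 59, 1 to 112 and 0 to 19 in QGP-1, and from 1 to 35, 1 to 28 and 0 to 8 in BON-1, in the same order; the highest count in both came from DESeq2. Differences of effects ran from 25 to 483 (dEx1) and 17 to 318 (FL) in SK-N-SH minus BON-1, 44 to 637 and 12 to 309 in SK-N-SH minus QGP-1, and 0 to 38 and 1 to 49 in QGP-1 minus BON-1. With 3 libraries per group, the widest intervals for MAML1 and MAML2 were those of MAML2 in QGP-1.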
